A study of Homo sapiens with 12 samples.

Results

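The genes described here are 35 genes of cholesterol and fatty acid synthesis that sterol regulatory element-binding proteins (SREBPs) are known to control or that control SREBPs. The list was chosen by gene function, with no threshold on measured values but with earlier results of these data known, and its genes were looked up by symbol among the 58735 genes of the deposited count table. All 35 were found, and each had at least 212 RNA-seq reads in each of the 6 RNA-seq libraries, so that all 35 passed the filter on low counts. The cells were 293T cells, a line derived from human embryonic kidney, that carried a doxycycline-inducible plasmid for 4EBP1-4A. This is a form of the translation repressor 4EBP1 in which the sites that kinases phosphorylate are changed to alanine, so that it stays bound to the cap-binding factor eIF4E. The DMSO group and the doxycycline group both carried the construct, and each was measured by RNA-seq of total RNA in 3 libraries and by ribosome footprinting (Ribo-seq) in 3 libraries. Doxycycline was given at 2 mg/mL, for 12 h by the sample labels and the methods and for 2 h by the text of the series, while the results text of the study gives a longer time. Both groups received cycloheximide before lysis. Cells without the construct were not analysed here, so the effects of doxycycline itself and of 4EBP1-4A cannot be told apart.

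SREBPs are made as membrane proteins of the endoplasmic reticulum. When sterols are low, the escort protein SCAP carries them to the Golgi, where proteases release the part that enters the nucleus and binds the promoters of lipid synthesis genes. When sterols are high, INSIG proteins hold SCAP in the endoplasmic reticulum and the genes are transcribed less. The SREBP encoded by SREBF2 is known mainly for the genes of cholesterol synthesis and uptake, and the SREBP1c form encoded by SREBF1 for those of fatty acid synthesis. Cholesterol synthesis starts from acetyl-CoA and runs through mevalonate, isoprenoids, squalene and lanosterol. Fatty acid synthesis starts from the same acetyl-CoA. The list of 35 does not hold each enzyme of these pathways.

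The induced gene was looked at before the members, as a check of the labels. EIF4EBP1, the gene of 4EBP1, was at 153, 154 and 168 CPM in DMSO replicates 1, 2 and 3, and at 258, 279 and 285 CPM in doxycycline replicates 1, 2 and 3. CPM are the reads of a gene scaled to a common total of reads on genes, with the TMM factors of edgeR. Each doxycycline library was above each DMSO library in CPM, in the direction the labels give. After the correction for GC content described below, the values were 185, 169 and 191 with DMSO and 272, 269 and 184 with doxycycline, so that doxycycline 3 lay among the DMSO libraries. Reads on genes numbered 51519700 to 57824136 per RNA-seq library with DMSO and 21687906 to 47862104 with doxycycline, the lowest in doxycycline 3. That library stood apart in other ways. Reads with more than 1 alignment made up 54.9% to 62.3% of all reads with DMSO, 65.4% and 69.9% in doxycycline 1 and 2, and 88.4% in doxycycline 3, and mitochondrially encoded genes took 13.6% and 11.8% of the reads on genes in doxycycline 1 and 2 and 5.76% in doxycycline 3. Of 10 marker genes of the HEK293 line, 9 were over 1 CPM in each RNA-seq library, and their summed level was 1294 to 1389 CPM with DMSO and 1373 to 1659 CPM with doxycycline. Of the markers of other cells, 6 of 7 for keratinocytes, 5 of 6 for blood cells, 3 of 5 for fibroblasts and 5 of 5 for hepatocytes stayed under 1 CPM in each library. The summed fibroblast level, nearly all from the collagen gene COL1A1, was 9.84 to 11.6 CPM with DMSO and 11.1 to 26.1 CPM with doxycycline. Counts and medians of the whole list are given with and without doxycycline 3. The fits of some single genes and the calls in the other lists are given without it alone. Over all 6 libraries, edgeR's test called 0 of all genes tested.

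RNA-seq was used to ask whether the mRNA levels of these genes differed between doxycycline and DMSO. Without doxycycline 3, 9 of 35 members fell: the sterol synthesis enzymes IDI1, MSMO1, HMGCS1, SQLE, SC5D and ACAT2, the sterol carriers STARD4 and NPC2, and the regulator INSIG1. Their fitted changes ran from -16.7% for NPC2 to -36.9% for IDI1. The sterol synthesis enzymes CYP51A1 and PMVK rose, by 30.3% and 23.1%, and 0 of the 9 fatty acid synthesis genes passed the test in either direction. The fallen members were 25.7% of the list, against 3.29% of the 20459 genes tested that were called lower. The risen members were 5.71% of the list, against 3.76% of genes called higher (edgeR's quasi-likelihood F-test, Benjamini-Hochberg adjusted p under 0.05 over all genes tested). In all, 25 of 35 members had a fitted change below 0, with a median log2 fold change of -0.13, while 50.1% of all genes tested were below 0, with a median of -0.00057.

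Over all 6 libraries the same test called 0 members and 0% of 20552 genes. At an unadjusted p under 0.05, 9 members were lower and 3 higher, beside 884 lower and 2189 higher genes in all. DESeq2's Wald test over the 6 libraries also called 0 members, with 2 genes lower and 1 higher in all. With sample quality weights in limma voom, a fit in which libraries far from their group count for less, 17 members were lower and 5 higher. Those are 48.6% and 14.3% of the list, against 18.1% of all genes called lower and 18.5% called higher. The median log2 fold change of the members over all 6 libraries was -0.12, and 24 of 35 were below 0. Without doxycycline 3, 4 of the 11 calls were lost without DMSO 1 (ACAT2, PMVK, CYP51A1 and NPC2) and 3 without DMSO 3 (ACAT2, PMVK and NPC2). Leaving out doxycycline 2 as well as doxycycline 3 left IDI1 and MSMO1 as the 2 members called lower, and 0 higher. In bulk RNA-seq, fewer cells that express a gene and less of its RNA per cell cannot be told apart. The labels do not say whether replicates were separate cultures, so the p-values measure the spread between these libraries, which may be technical.

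**Figure D1:**
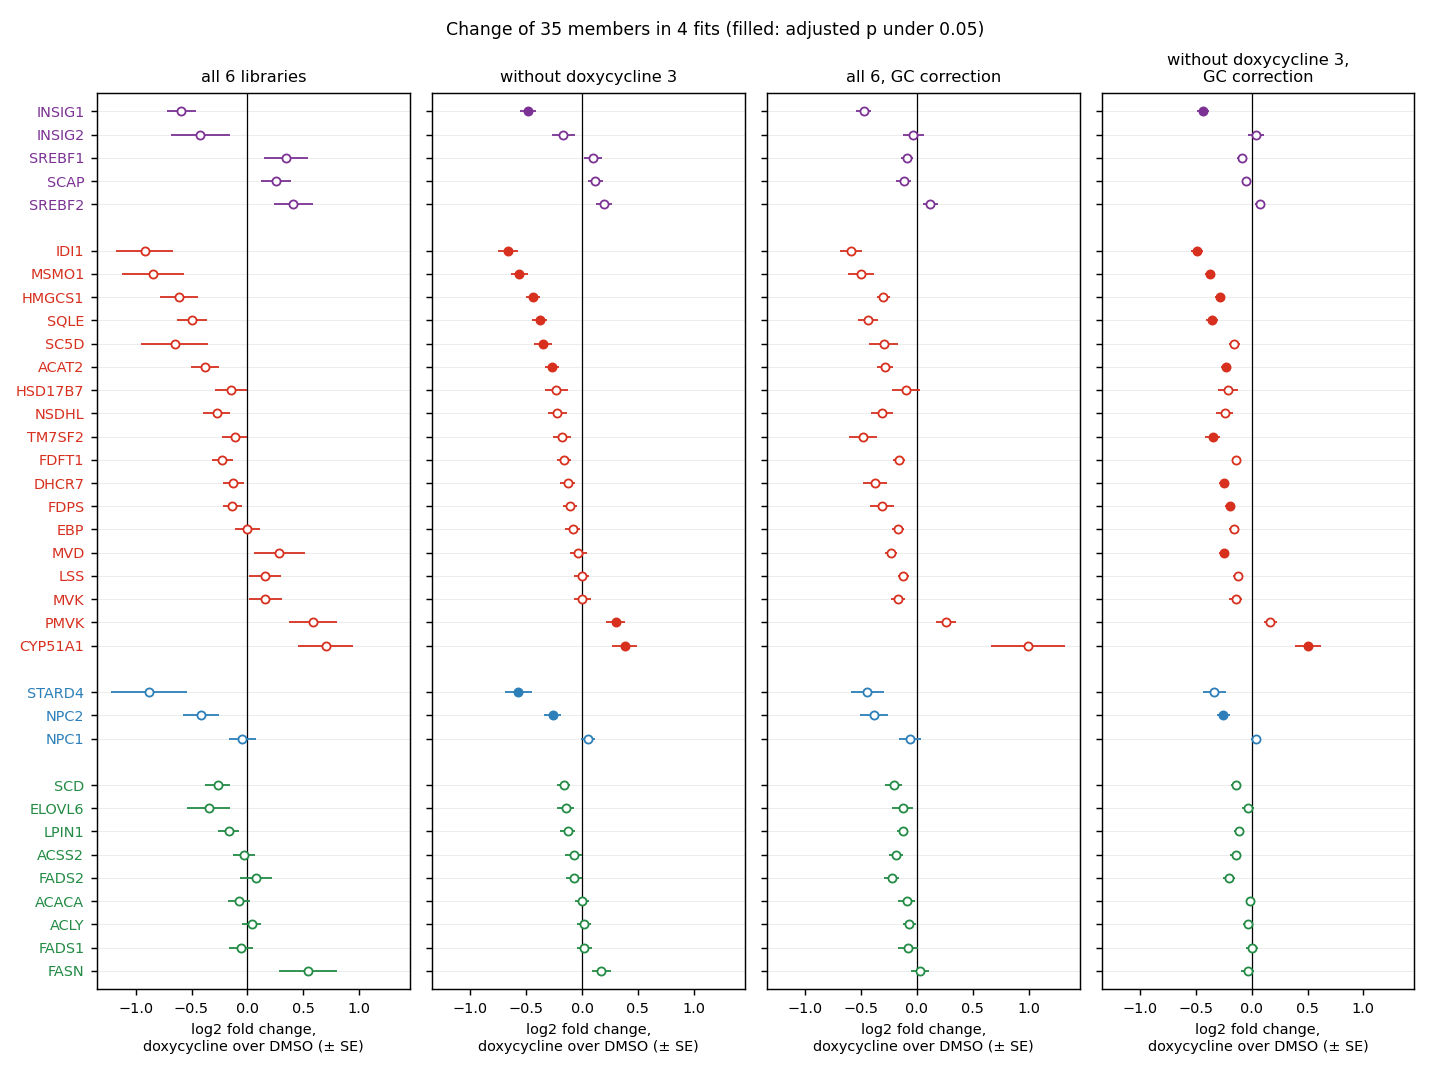
Fitted log2 fold change of doxycycline over DMSO with its standard error (x axis) for the 35 members (rows), in edgeR fits of all 6 RNA-seq libraries, of 5 libraries without doxycycline 3, and of both with a correction for transcript GC content. Names and points are purple for regulators, red for sterol synthesis, blue for sterol transport and green for fatty acid synthesis, and filled points have an adjusted p under 0.05. Filled points number 0 and 11 in the fits of all 6 and of 5 libraries, and 0 and 12 after the GC correction.

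The change of a gene also moved with the GC content of its transcript, in members and in all other genes. Over all 6 libraries, the median log2 fold change was -0.36 for the 3239 genes with a GC content of up to 40% and 0.43 for the 2827 genes over 60%. Without doxycycline 3 these medians were -0.18 and 0.19. The 6 members of up to 40% GC, which are INSIG2, HMGCS1, IDI1, MSMO1, SC5D and STARD4, had medians of -0.75 over all 6 libraries and -0.50 without doxycycline 3. The 6 members over 60% GC, which are SREBF1, SCAP, MVK, MVD, TM7SF2 and FASN, had medians of 0.27 and 0.05. In each of the 6 GC classes the median of the members was under the median of all genes, in both fits. Spearman's correlation of change with GC content over all 6 libraries was 0.67 across 20396 genes and 0.79 across the 35 members. These are descriptions across genes that share the same libraries. Doxycycline 3 was the highest or lowest of the 6 libraries in 32 of 35 members, and it lay under the others in each of the 9 members that fell.

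A correction for GC content, chosen after seeing the data, removed a smooth curve of each library's values on transcript GC before the same test. It takes away any change that runs with GC content, whatever its source. For the induced gene EIF4EBP1, at 62.9% GC, it took the log2 fold change from 0.79 to 0.41 over all 6 libraries. Without doxycycline 3 that change went from 0.76 to 0.58. Without doxycycline 3, the corrected fit called 11 members lower and 1 higher, which are 31.4% and 2.86% of the list, against 1.82% of 20305 genes called lower and 2.19% called higher. The 11 were MSMO1, IDI1, SQLE, HMGCS1, ACAT2, TM7SF2, FDPS, MVD, DHCR7, NPC2 and INSIG1, and CYP51A1 was the member called higher. With and without the correction, 8 members were called in both fits. PMVK, SC5D and STARD4 were called without the correction and not with it, and TM7SF2, FDPS, MVD and DHCR7 with it and not without. Over all 6 libraries, the corrected fit called 0 members, with 21 lower and 2 higher at an unadjusted p under 0.05, beside 1382 lower and 1752 higher of 20396 genes. In that fit 31 of 35 were below 0 with a median of -0.17 beside -0.0064 for all genes. The part of GC content or of doxycycline 3 in the uncorrected changes was not tested beyond these fits.

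**Figure D2:**
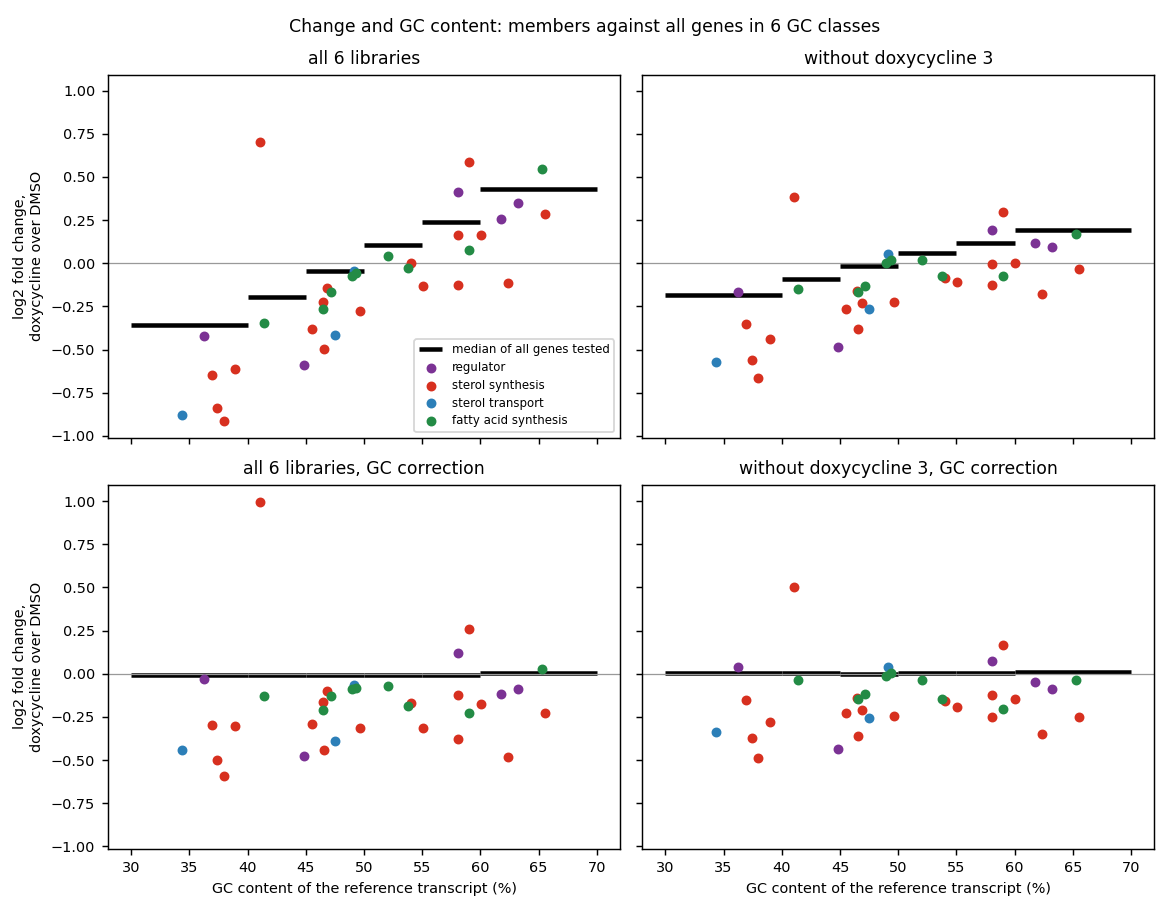
Log2 fold change of doxycycline over DMSO (y axis) against the GC content of the reference transcript in percent (x axis), for the 35 members as points coloured by role, and for all genes tested as the median of each of 6 GC classes (black bars). Without the correction the bars climb with GC content, from -0.36 to 0.43 over all 6 libraries, and with it they lie near 0 while 31 (all 6) and 29 (without doxycycline 3) of the 35 members lie below 0.

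The levels of single libraries were compared next. In CPM, the 3 doxycycline libraries all lay under the 3 DMSO libraries for 15 of 35 members (42.9%), against 18.9% of all genes tested. They all lay over the DMSO libraries for 4 members (11.4%), against 19.7% of genes. The groups overlapped for 16 members. In GC-corrected CPM the doxycycline libraries were all lower for 24 members (68.6%), against 15.2% of 20396 genes, and all higher for 2 (5.71%), against 15.1%. The 24 were 15 of the 18 sterol synthesis genes, 2 of 3 transport genes, 3 of 5 regulators and 4 of 9 fatty acid genes. The same corrected values put the induced gene EIF4EBP1 at 184 in doxycycline 3, among its DMSO values of 169 to 191. Whether the correction takes too much from GC-rich genes in that library was not tested.

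**Figure D3:**
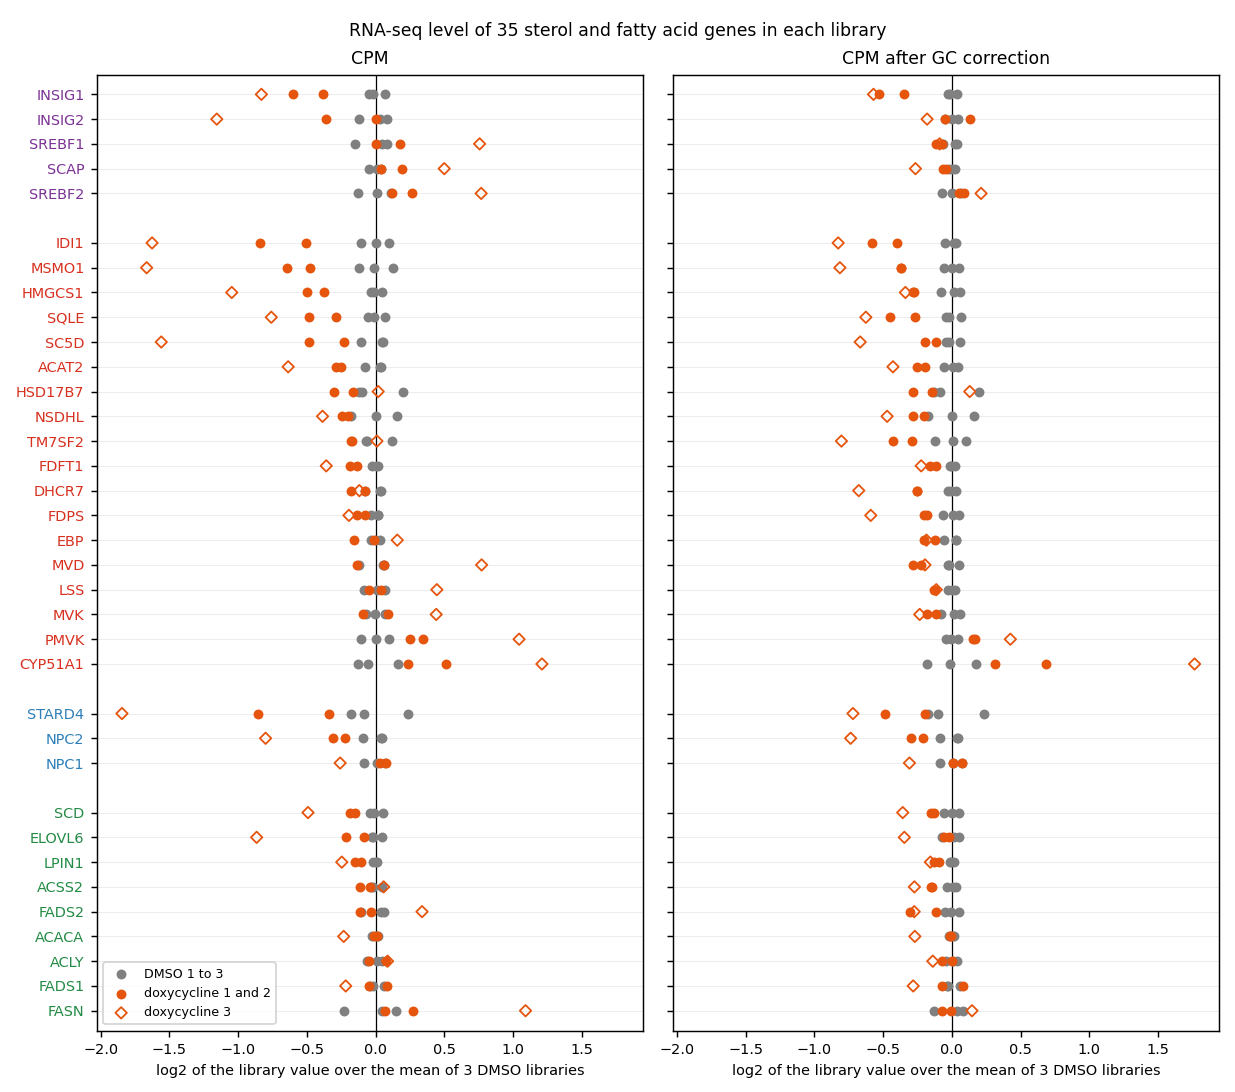
Log2 of the value in each RNA-seq library over the mean of the 3 DMSO libraries (x axis) for the 35 members (rows, coloured by role as in the plot of fitted changes), in CPM and in GC-corrected CPM. Grey points are DMSO 1 to 3, filled orange points doxycycline 1 and 2, and open diamonds doxycycline 3, which lies at an end of the 6 values for 32 members in CPM.

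Among the 5 regulators, INSIG1 fell without doxycycline 3 and the other 4 did not pass the same test, which called 3.29% of all genes lower and 3.76% higher. With sample quality weights in limma voom over all 6 libraries, INSIG1 and INSIG2 were called lower and SREBF2 and SCAP higher. That fit called 18.1% of all genes lower and 18.5% higher. INSIG1 encodes an anchor that retains SCAP in the endoplasmic reticulum, and its own gene is a target of SREBPs. It was at 252, 232 and 237 CPM with DMSO and at 184, 159 and 135 CPM with doxycycline 1, 2 and 3. The groups did not overlap, and doxycycline 3 was the lowest library. The fitted log2 fold change was -0.59 ± 0.13 (SE) over all 6 libraries (edgeR's adjusted p = 0.303) and -0.49 ± 0.071 without doxycycline 3 (adjusted p = 0.00357). With GC correction the latter was -0.44 (adjusted p = 0.00152). With doxycycline 1 as the one treated library it was -0.38 and no longer called.

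INSIG2 encodes a second anchor of the same kind that is less dependent on SREBPs. It was at 21.0, 18.2 and 20.3 CPM with DMSO and at 19.9, 15.4 and 8.91 CPM with doxycycline. Doxycycline 1 lay within the DMSO values and doxycycline 3 far under them. Its log2 fold change was -0.42 ± 0.26 (SE) over all 6 libraries and -0.17 ± 0.10 without doxycycline 3, and with GC correction of the latter it was 0.04, so the sign turned. The adjusted p was 0.338 over all 6 libraries, 0.312 without doxycycline 3 and 0.826 with the correction.

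SREBF2, which encodes SREBP2, was at 165, 194 and 182 CPM with DMSO and at 196, 216 and 307 CPM with doxycycline. The doxycycline libraries were all higher, although doxycycline 1 was above DMSO 2 by a small margin. Its log2 fold change was 0.41 ± 0.18 (SE) over all 6 libraries, 0.19 ± 0.072 without doxycycline 3 (adjusted p = 0.102) and 0.07 ± 0.046 with GC correction of the latter. Without doxycycline 3 it was called with library totals (0.25, adjusted p = 0.0493), without DMSO 2 (0.25) and without doxycycline 1 (0.26). SREBF1, which encodes the SREBP1 forms, was at 48.8, 57.3 and 55.9 CPM with DMSO and at 54.2, 61.2 and 91.2 CPM with doxycycline, so the groups overlapped. SCAP was at 138, 147 and 145 CPM with DMSO and at 148, 164 and 203 CPM with doxycycline. Its doxycycline libraries lay over the DMSO libraries in CPM and under them in GC-corrected CPM. For SREBF1 and SCAP the log2 fold change without doxycycline 3 was 0.10 and 0.12, and with GC correction it was -0.09 and -0.05, with adjusted p from 0.261 to 0.53. The GC contents of these 2 transcripts are 63.2% and 61.7%, among the highest of the list.

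The enzymes of sterol synthesis held most of the members that fell. Without doxycycline 3, 6 of 18 fell and 2 rose, and 15 of 18 had a fitted change below 0, beside 3.29% of all genes called lower, 3.76% called higher and 50.1% below 0. With GC correction 9 of 18 fell and 1 rose, beside 1.82% and 2.19% of all genes. In that corrected fit 16 of 18 were below 0, beside 48.9% of all genes, with a median log2 fold change of -0.22. CYP51A1 and PMVK were the 2 above 0. Over all 6 libraries with GC correction, the median of the 18 was -0.29. At an unadjusted p under 0.05, 14 were lower and 2 higher, beside 1382 lower and 1752 higher of 20396 genes. In that fit 0 of the 18 passed the adjusted test. Over all 6 libraries without the correction, the median was -0.14. At the same unadjusted p, 5 of 18 were lower and 2 higher, beside 884 lower and 2189 higher of 20552 genes.

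The pathway opens with ACAT2, which joins acetyl-CoA units in the cytosol, and HMGCS1, which makes HMG-CoA, the precursor of mevalonate. ACAT2 was at 168, 156 and 169 CPM with DMSO and at 135, 138 and 106 CPM with doxycycline. HMGCS1 was at 148, 146 and 154 CPM with DMSO and at 115, 105 and 72.2 CPM with doxycycline. Neither gene had overlapping groups, and in both doxycycline 3 was lowest. The log2 fold changes over all 6 libraries were -0.38 ± 0.12 (SE) for ACAT2 and -0.61 ± 0.17 for HMGCS1 (edgeR's adjusted p = 0.303 for both). Without doxycycline 3 the log2 fold change of ACAT2 was -0.27 ± 0.063 (SE; edgeR's adjusted p = 0.023) and that of HMGCS1 was -0.44 ± 0.065 (adjusted p = 0.00366). With GC correction they were -0.23 and -0.28, both called. Without the correction ACAT2 was no longer called without DMSO 1 (-0.25) or DMSO 3 (-0.25). An unnamed gene on the opposite strand, ENSG00000261604, covers 37.7% of the exon bases of HMGCS1, and other genes, TCP1 among them, cover 22.2% of those of ACAT2. No source says that strand was used in counting, so reads of these genes may be mixed.

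PMVK, which adds the second phosphate to mevalonate, stood apart from its neighbours in the pathway. It was at 16.8, 19.3 and 18.2 CPM with DMSO and at 21.5, 23.0 and 37.3 CPM with doxycycline, with the groups apart and doxycycline 3 far above the others. Its log2 fold change was 0.59 ± 0.21 (SE) over all 6 libraries (edgeR's adjusted p = 0.303) and 0.30 ± 0.085 without doxycycline 3 (adjusted p = 0.0415). With GC correction the latter was 0.17 (adjusted p = 0.138), so the call depends on the correction. The call was also lost without DMSO 1 (0.25) or DMSO 3 (0.30). MVK and MVD, the kinase before it and the decarboxylase after it, had log2 fold changes of 0.00314 and -0.04 without doxycycline 3. With GC correction the change of MVD was -0.25 (adjusted p = 0.0154) and that of MVK was -0.14 (adjusted p = 0.158).

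IDI1, the isomerase that readies isoprenoid units for joining, had the lowest fitted change of the list in each of the 4 fits plotted. It was at 155, 135 and 146 CPM with DMSO and at 102, 81.2 and 47.1 CPM with doxycycline. The highest doxycycline library lay well under the lowest DMSO library, and the 3 doxycycline libraries differed among themselves more than the DMSO libraries did. On the log2 scale the change was -0.92 ± 0.26 (SE) over all 6 libraries, -0.66 ± 0.086 without doxycycline 3 (adjusted p = 0.00104) and -0.49 ± 0.052 with GC correction of the latter (adjusted p = 0.000723). It remained called with doxycycline 1 as the one treated library. The antisense gene IDI2-AS1 overlaps some of its exon bases.

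SQLE, the epoxidase of squalene and a rate-limiting enzyme of the later pathway, was at 315, 306 and 333 CPM with DMSO and at 261, 228 and 188 CPM with doxycycline. The groups were apart, with doxycycline 3 lowest. The log2 fold change came to -0.50 ± 0.13 (SE) over all 6 libraries (edgeR's adjusted p = 0.303). Without doxycycline 3 it was -0.38 ± 0.069 (adjusted p = 0.00842), and -0.36 ± 0.055 with GC correction (adjusted p = 0.0076). FDFT1, the squalene synthase upstream of it, had a log2 fold change of -0.16 without doxycycline 3 (adjusted p = 0.106) and of -0.14 with GC correction (adjusted p = 0.0674). FDPS, which makes farnesyl diphosphate, had -0.11 (adjusted p = 0.288) and, with GC correction, -0.19 (adjusted p = 0.0299). LSS, which closes the rings to lanosterol, had -0.00292 and, with GC correction, -0.12 (adjusted p = 0.0998).

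CYP51A1, the demethylase that acts on lanosterol, was the member with the largest rise. It was at 7.26, 7.64 and 8.86 CPM with DMSO and at 9.32, 11.3 and 18.3 CPM with doxycycline, so that each treated library stood above the 3 controls. In the fits, the log2 fold change was 0.70 ± 0.25 (SE) over all 6 libraries, 0.38 ± 0.11 without doxycycline 3 (adjusted p = 0.0431) and 0.50 ± 0.11 with GC correction of the latter (adjusted p = 0.0294). It was not called without DMSO 1 (0.32) or with sample quality weights in limma voom on the same 5 libraries (0.32, adjusted p = 0.0911). This gene had the lowest level per length of the list, and 68.2% of its exon bases in GENCODE 44 are shared with other genes on the same strand. Reads on shared exons are not assigned to either gene by many counters, so its count is uncertain.

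MSMO1, a sterol oxidase downstream of CYP51A1, moved the other way. It was at 87.0, 73.4 and 79.0 CPM with DMSO and at 57.2, 50.9 and 25.1 CPM with doxycycline, with the groups apart. The fitted log2 change was -0.84 ± 0.28 (SE) over all 6 libraries, -0.56 ± 0.079 without doxycycline 3 (adjusted p = 0.0026) and -0.37 ± 0.045 with GC correction (adjusted p = 0.00164). It remained called with doxycycline 1 as the one treated library, and no other gene shares its exon bases in GENCODE 44. NSDHL, the next enzyme, was at 52.3, 59.4 and 66.1 CPM with DMSO and at 51.6, 49.9 and 45.4 CPM with doxycycline. Its groups were apart by a small margin, and its log2 fold change of -0.22 without doxycycline 3 did not pass (adjusted p = 0.103).

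SC5D, a desaturase near the end of the pathway, was at 91.4, 81.7 and 91.2 CPM with DMSO and at 75.2, 63.0 and 29.9 CPM with doxycycline. Doxycycline 3 was less than the other treated libraries by a wide margin, at 0.432 of their mean. The log2 ratio of doxycycline to DMSO was -0.65 ± 0.30 (SE) over all 6 libraries (edgeR's adjusted p = 0.303). Without doxycycline 3 it was -0.35 ± 0.079 (adjusted p = 0.0183), and -0.15 ± 0.047 with GC correction (adjusted p = 0.0805). At 36.9% its GC content is among the lowest of the list. The reductases TM7SF2 and DHCR7 were not called without the correction, with log2 fold changes of -0.18 and -0.13, and were called with it, with -0.35 (adjusted p = 0.0181) and -0.25 (adjusted p = 0.00923). For HSD17B7 and EBP the log2 fold changes with the correction were -0.21 (adjusted p = 0.222) and -0.16 (adjusted p = 0.0704). A gene on the same strand covers 36.4% of the exon bases of EBP. FDPS, HSD17B7, CYP51A1 and SCD have pseudogene copies that could take some of their reads.

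Promoter sequence was read for the 31 members found in the RefSeq promoter table (GRCh38.p14), all but ACAT2, FDFT1, SQLE and FASN, in windows from 250 bases before to 50 bases after each start site. SREBPs are known to bind beside NF-Y, which recognises the CCAAT box, and beside Sp1, which recognises the GC box. The CCAAT box was searched as CCAAT on both strands, so that it reads ATTGG where it lies on the other strand. The GC box was searched as GGGCGG, a sterol element as TCACNCCAC and the E-box as CACGTG, each on both strands. No 2 matches of different motifs shared a base in the members' windows. A CCAAT box was present for 22 of 31 members (71.0%), against 39.7% of the 27305 genes in the table and 42.8% of the 12558 genes in it that were tested in RNA-seq. Counted per window, since some genes have several start sites, it was in 57.8% of the 45 windows of members and in 34.4% of 18170 windows of tested genes. It was found for 13 of 15 sterol synthesis genes, all but CYP51A1 and PMVK. For IDI1 it was found at 2 of 3 start sites. It was not found for INSIG2, SCAP, SREBF1, NPC1, ELOVL6, FADS1 or LPIN1 either. A GC box was present for 30 of 31 members (96.8%), against 48.3% of all genes and 75.3% of tested genes. The sterol element in this strict form was found for SREBF2 alone, against 1.39% of all genes, and the E-box for 4 of 31 (12.9%), against 8.77% of all and 12.2% of tested genes.

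Up to 250 bases before the start site are shown for 4 members that fell without doxycycline 3, chosen after their values were seen, with each CCAAT box in capitals. They lie at chr4:165327419-165327666 (+ strand), chr5:43313513-43313662 (- strand), chr5:111512591-111512785 (- strand) and chr7:155297628-155297775 (+ strand) of GRCh38.p14 and are printed 5′ to 3′ on the strand of the gene. The genes start up to 102 bases further upstream in GENCODE 44 than at these start sites, so each stretch was ended before the gene, and none of its bases lies in an exon of that annotation.
MSMO1: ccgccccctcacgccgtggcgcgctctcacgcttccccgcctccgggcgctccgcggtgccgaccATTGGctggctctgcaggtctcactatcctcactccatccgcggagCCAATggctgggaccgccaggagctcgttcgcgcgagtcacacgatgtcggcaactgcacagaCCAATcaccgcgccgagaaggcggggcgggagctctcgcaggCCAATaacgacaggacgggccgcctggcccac
HMGCS1: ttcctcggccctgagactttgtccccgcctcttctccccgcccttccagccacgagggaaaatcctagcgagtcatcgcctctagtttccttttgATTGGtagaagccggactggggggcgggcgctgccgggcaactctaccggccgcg
STARD4: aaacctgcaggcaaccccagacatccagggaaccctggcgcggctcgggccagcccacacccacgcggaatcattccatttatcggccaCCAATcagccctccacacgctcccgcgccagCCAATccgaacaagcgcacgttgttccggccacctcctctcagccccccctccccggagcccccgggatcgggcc
INSIG1: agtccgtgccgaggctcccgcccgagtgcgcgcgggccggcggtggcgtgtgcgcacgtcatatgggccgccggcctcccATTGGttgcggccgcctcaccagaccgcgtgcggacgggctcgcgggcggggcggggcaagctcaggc
In these stretches MSMO1 had 4 CCAAT boxes, STARD4 had 2, and HMGCS1 and INSIG1 had 1 each. Over the whole window of the first start site, HMGCS1 had 2, while MSMO1 still had 4, STARD4 had 2 and INSIG1 had 1. Counted over that whole window, IDI1 had 0 and SC5D had 1, 2 members that fell and are not shown. The match to the sterol element in SREBF2 starts 133 bases before the start site and is shown in capitals with 20 bases on each side, at chr22:41832952-41833000 (+ strand), upstream of the gene and within an exon of the antisense RNA SREBF2-AS1.
SREBF2: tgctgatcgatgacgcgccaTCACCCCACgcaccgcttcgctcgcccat
These matches are letters in a window. They are not measured binding, and other forms of the sterol element were not searched.

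Of the 3 genes of sterol transport, STARD4 and NPC2 fell without doxycycline 3 and NPC1 did not pass, beside 3.29% of all genes called lower. With GC correction NPC2 alone was called, beside 1.82% of all genes called lower. Over all 6 libraries 0 of the 3 were called. There the log2 fold change was -0.88 ± 0.34 (SE) for STARD4 and -0.42 ± 0.16 for NPC2 (edgeR's adjusted p = 0.303 for both). STARD4, a carrier that moves cholesterol between membranes, was at 63.8, 59.7 and 79.6 CPM with DMSO and at 53.6, 37.4 and 18.8 CPM with doxycycline. The groups were apart, and both groups were wide. edgeR gave a log2 fold change of -0.57 ± 0.12 (SE) without doxycycline 3 (adjusted p = 0.0162) and -0.34 ± 0.10 with GC correction (adjusted p = 0.0835), and its GC content of 34.4% is the lowest of the list. DESeq2's Wald test without doxycycline 3 did not call it (adjusted p = 0.0946). NPC2, which binds cholesterol in the lysosome, was at 42.6, 38.8 and 42.5 CPM with DMSO and at 35.5, 33.4 and 23.7 CPM with doxycycline. On the log2 scale the change was -0.26 ± 0.076 without doxycycline 3 (adjusted p = 0.0432) and -0.25 ± 0.056 with GC correction (adjusted p = 0.0271). Without the correction, NPC2 was not called with library totals (-0.21, adjusted p = 0.0871), without DMSO 1 (-0.24) or without DMSO 3 (-0.24). NPC1, the membrane protein that takes cholesterol from NPC2, was at 117 ± 6.44 CPM (SD, n = 3) with DMSO and at 114 ± 13.7 CPM (SD, n = 3) with doxycycline, with overlapping groups. The log2 fold change came to 0.05 without doxycycline 3 (adjusted p = 0.659).

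The 9 genes of fatty acid synthesis showed 0 calls in edgeR's test without doxycycline 3, with and without GC correction. At an unadjusted p under 0.05, 1 of the 9 was lower without the correction, beside 2630 of 20459 genes, and 4 were lower with it, beside 1840 of 20305 genes. At that p 0 of the 9 were higher in either fit, and DESeq2's Wald test called SCD lower. SCD, the desaturase that makes monounsaturated fatty acids, came nearest among them without the correction. It was at 763, 781 and 815 CPM with DMSO and at 709, 692 and 559 CPM with doxycycline, with the groups apart. In the fits, the log2 fold change was -0.17 ± 0.060 (SE; adjusted p = 0.0915) without doxycycline 3 and -0.14 with GC correction (adjusted p = 0.0871). Over all 6 libraries, the fit with sample quality weights called SCD, ELOVL6 and LPIN1 lower and FASN higher. Those are 3 and 1 of the 9 genes, beside 18.1% of all genes called lower and 18.5% called higher in that fit. ELOVL6, which lengthens fatty acids, was at 37.3, 37.1 and 38.9 CPM with DMSO and at 35.5, 32.6 and 20.7 CPM with doxycycline. Its groups were apart in CPM and overlapped after GC correction, and its log2 fold change went from -0.15 to -0.04 with the correction.

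FASN, the fatty acid synthase, had higher values in CPM. It was at 679.8, 883 and 824 CPM with DMSO and at 834, 958 and 1695 CPM with doxycycline. The groups overlapped, and doxycycline 3 was at 1.89 times the mean of the other treated libraries. The fitted log2 change was 0.17 without doxycycline 3 (adjusted p = 0.22) and -0.03 with GC correction (adjusted p = 0.798), and its GC content of 65.3% is the second highest of the list. With sample quality weights in limma voom over all 6 libraries, FASN was called higher (0.23, adjusted p = 0.0379). For the other 6 genes, ACACA and ACLY, which supply the building blocks, the desaturases FADS1 and FADS2, the acetate enzyme ACSS2 and the phosphatase LPIN1, the log2 fold changes without doxycycline 3 ran from -0.13 for LPIN1 to 0.02 for FADS1. With GC correction the lowest was that of FADS2, at -0.20 (adjusted p = 0.0553). The median of the 9 genes was -0.07 without doxycycline 3 and -0.04 with the correction, beside -0.17 and -0.22 for the 18 sterol synthesis genes. This difference between the lists was not tested.

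Levels per length were compared as RPKM, which are CPM divided by the merged exon length in kilobases. With DMSO, the 35 members ran from 1.90 ± 0.20 RPKM (SD, n = 3) for CYP51A1 to 168 ± 6.55 RPKM for ACLY. The place of CYP51A1 is uncertain, since 68.2% of its exon bases are shared with other genes on the same strand. The 3 highest were fatty acid genes, ACLY, then SCD at 149.9 ± 5.06 RPKM, then FASN at 85.4 ± 11.2 RPKM. FASN and the next gene, SQLE at 73.9 ± 3.14 RPKM, had ranges of the mean ± SD that touch, whereas SCD and FASN were apart. INSIG1 at 65.8 ± 2.77 RPKM and ACAT2 at 62.3 ± 2.73 RPKM followed and did not differ beyond their spread. The medians by role were 22.4 RPKM for the regulators, 22.4 RPKM for sterol synthesis, 12.1 RPKM for sterol transport and 15.2 RPKM for fatty acid synthesis. With doxycycline, SCD and FASN both stood at 125 RPKM, with SDs of 15.7 and 49.9. Together the members took 0.540% to 0.583% of the reads on genes in the DMSO libraries, 0.540% and 0.567% in doxycycline 1 and 2, and 0.671% in doxycycline 3.

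**Figure D4:**
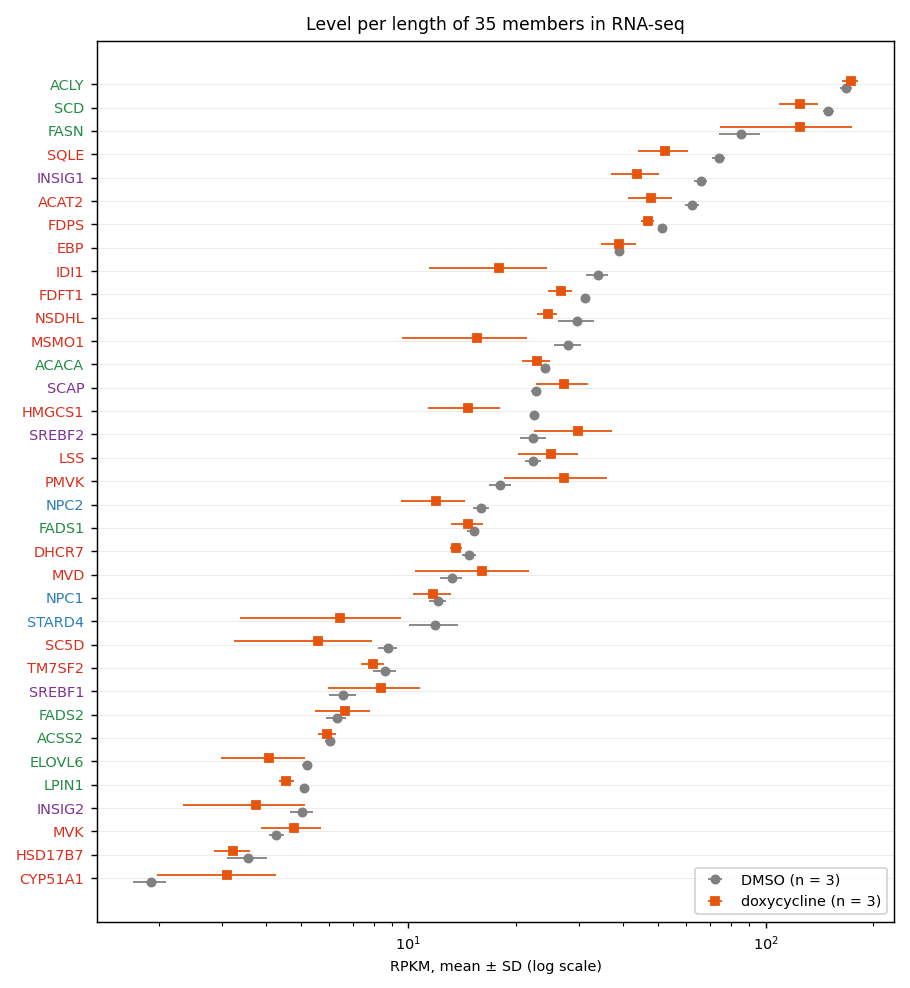
RNA-seq level per length in RPKM (x axis, log scale) of the 35 members, ordered by the DMSO mean, as mean ± SD of 3 DMSO libraries (grey circles) and 3 doxycycline libraries (orange squares). Names are coloured by role as in the plot of fitted changes, and DMSO means run from 1.90 for CYP51A1 to 168 for ACLY. The level of CYP51A1 is uncertain, since most of its exon bases are shared with other genes.

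Other genes of the same pathways were taken from lists drawn up beside the members, and their counts stand beside 3.29% of all genes called lower and 3.76% called higher without doxycycline 3, and 1.82% and 2.19% with GC correction. Of 18 genes of SREBP processing and turnover, 4 fell and 0 rose without doxycycline 3, namely the ubiquitin ligases RNF139 and RNF145, the Golgi protein PAQR3 and the coat protein SEC23A, with log2 fold changes of -0.32 to -0.23. With GC correction RNF145 stayed called lower and MBTPS2, a protease that releases SREBPs, was called higher at 0.16. Of 15 other isoprenoid and sterol genes tested, LBR, a sterol reductase of the nuclear envelope, TMEM97 and VAPA fell without doxycycline 3, and with GC correction TMEM97 alone was called, at -0.24. Of 32 other lipogenic genes tested, ELOVL5, ACSL4 and HSD17B12 fell and ACACB and MLXIPL rose without doxycycline 3. With the correction SLC25A1, the mitochondrial citrate carrier, and MID1IP1 were called lower and ACACB was called higher, at 0.33. Of 6 genes of LXR and efflux, 0 were called in either fit, with medians of 0.02 and -0.09. Of 15 genes of fatty acid oxidation, 0 were called without the correction and CPT1C was called lower with it, at -0.54. The medians of the lists without doxycycline 3 and with GC correction lay between -0.09 and -0.01, against -0.14 for the 35 members and 0.0035 for all genes. Without the correction they lay between -0.10 and 0.02, against -0.13. Over all 6 libraries without the correction, the median of the members was -0.12. SREBP processing and turnover was lower at -0.15, as were other isoprenoid and sterol genes at -0.16. Other lipogenic genes and fatty acid oxidation were at -0.06 each, LXR and efflux at 0.08 and all genes at 0.0029.

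Ribo-seq was made to ask whether translation of an mRNA changed relative to its level (translation efficiency, TE). At 210186 to 1002424 reads on genes per library, it held few reads of the members. All 35 together had 123 reads in the 3 DMSO libraries and 55 in the 3 doxycycline libraries. Of the 35, 11 had 0 reads in all 6 libraries, IDI1, HMGCS1, MSMO1, SQLE and SCD among them, 19 had 1 to 9 reads, and 5 had at least 10. Where a library holds 0 reads of a gene, an expected count of 3 reads is an approximate upper limit for counting error alone. It equals 2.99 to 14.3 CPM of Ribo-seq reads on genes and is not a strict maximum.

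The 5 members with at least 10 reads were SREBF1, FDPS, ELOVL6, MVD and LSS, and they alone entered the TE test. SREBF1 had 2, 5 and 20 reads with DMSO and 16, 8 and 3 reads with doxycycline, and the groups overlapped. FDPS had 0, 21 and 0 reads with DMSO and 1, 0 and 0 with doxycycline, so nearly all of its reads came from DMSO 2. ELOVL6 had 1, 11 and 0 reads with DMSO and 0, 0 and 1 with doxycycline, again mainly from DMSO 2. The log2 change in TE was 0.10 ± 0.999 (SE) for SREBF1, -3.84 ± 2.16 for FDPS and -2.88 ± 1.80 for ELOVL6, and for MVD and LSS it was -0.40 ± 1.46 and 2.25 ± 1.46. Adjusted p ran from 0.334 to 0.978 in edgeR's test of assay by treatment. In that test 0 members were called, and 0.0750% of 1334 genes. The lowest unadjusted p of a member was 0.0997, for FDPS, and DESeq2's Wald test also called 0 members. A change in TE of these mRNAs was not detectable at this depth.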

How the data were processed

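Total RNA (RNA-seq) and ribosome-protected fragments (Ribo-seq) were sequenced from 293T cells, 3 libraries per assay and treatment. The authors mapped reads with STAR, after taking reads on ribosomal RNA out of the footprints, and deposited raw counts of reads on exons per gene. The methods name GRCh38 for mapping, the processing notes GRCh37 and the labels an Ensembl 75 annotation, and the use of strand is not stated. Rows that name no human gene (92 spike-ins, 89 viral and other rows, 5 counters) were left out. The deposited RiboDiff table holds the authors' own TE comparison and was used for gene symbols alone.

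Counts were scaled with TMM factors and tested with the quasi-likelihood F-test of edgeR 4.0.16 (R 4.3.3). The SE given for edgeR fits was derived from that test, as the absolute log2 fold change over the square root of F. Genes needed 10 or more reads in 3 or more libraries, or 10 or more reads per assay for TE, which was the interaction of assay and treatment over 12 libraries. P-values were adjusted over all genes tested, with a threshold of 0.05. DESeq2 1.42.0 and limma 3.58.1 were alternatives. Reference transcripts, exon lengths and coordinates came from GENCODE 44 on GRCh38, which matched 58207 genes (99.1%). The GC correction fitted a loess curve (span 0.5) on the GC content of the reference transcript to each library's log2 CPM minus the gene's mean. The curve entered the test as an offset. The GC-corrected CPM shown were calculated from log2 CPM with a pseudocount of 0.5. Promoter windows came from RefSeq (GRCh38.p14). Tests were tried on simulated counts. Reads on genes per library numbered 21687906 to 57824136 (RNA-seq) or 210186 to 1002424 (Ribo-seq). 0 pairs of libraries held identical counts.

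Members, lists and motifs were chosen with earlier results of these data known. Values in each library are given for the 5 regulators, for members called in either RNA-seq fit and for up to 15 members whose groups do not overlap, by size of change. Other members are given by ranges, and those called or flagged by GC correction with their fitted change.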

Additional observations from a re-analysis of the deposited data

How the results depend on the processing

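Over all 6 RNA-seq libraries, 0 members were called in either direction with library totals, with DESeq2's size factors, with no filter or one of 100 reads in 3 libraries, without mitochondrially encoded genes, with the replicate block, with GC correction and with DESeq2's Wald test, which called 2 genes lower and 1 higher in all. Sample quality weights called 17 members lower and 5 higher, with 3724 genes lower and 3810 higher. Leaving out each replicate in turn gave 0 to 9 members lower and 0 to 2 higher, with 0 to 673 genes lower and 0 to 769 higher, and all of these calls came without doxycycline 3. With GC correction these ranges were 0 to 11 and 0 to 1 members, and 0 to 369 and 0 to 445 genes. The median log2 fold change of the members was -0.12, and -0.024 with library totals (median of all genes 0.097), -0.17 with GC correction and -0.17 with GC correction and replicate block. It ran from -0.190 to -0.072 with each replicate left out, with or without GC correction. Without doxycycline 3, 9 members were lower and 2 higher. With library totals 8 were lower and 3 higher, SREBF2 among them. The members called higher were 1 without a filter on low counts, 1 with quality weights, 1 with GC correction and 4 with the replicate block. Genes called lower and higher were 338 and 1442 with library totals (median of the members -0.071), 369 and 445 with GC correction, 2220 and 2121 with the replicate block, and 1054 lower with DESeq2's Wald test. With a further replicate left out, 2 to 10 members were lower and 0 to 4 higher, with 7 to 1549 genes lower and 2 to 1483 higher. The lowest of these came without doxycycline 2, where the lone treated library is assumed to vary like the others. With GC correction the sign turned for SREBF1 (-0.088 over all 6 libraries, -0.088 with the replicate block as well, -0.089 without doxycycline 3) and for SCAP (-0.12, -0.12 and -0.050). INSIG2 turned to 0.037 with GC correction without doxycycline 3. With each replicate left out, with or without GC correction, the log2 fold changes ran from -0.12 to 0.50 for SREBF1, -0.16 to 0.35 for SCAP and -0.69 to 0.037 for INSIG2, and in the fits without doxycycline 3 from -0.36 to 0.0023 for INSIG2. The TE test called 0 members under each alternative that could be computed. Genes called lower were 1, and 2 with library totals, 4 without a filter, 2 with at least 60 reads per assay, 35 with DESeq2's Wald test, 0 with the replicate block and 0 to 3 with a replicate left out. Genes called higher were 0, and 3 without a filter, 26 with DESeq2's Wald test and 0 to 1 with a replicate left out. With at least 60 reads per assay no member was left in the TE test. Replicate numbers are shared by the groups. The deviations of samples with the same number correlated at 0.39, -0.36 and 0.02, and those of different numbers at -0.45 to 0.47. Deviations from a group mean of 3 libraries depend on each other, so these values do not decide whether the numbers pair the libraries. With the replicate block, 11 members were lower and 4 higher without doxycycline 3, and 0 over all 6 libraries. The cause of these shifts was not tested. Doxycycline 3 held the fewest reads on genes, and Ribo-seq held too few reads of the members to test most of them.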
